A study of Homo sapiens with 10 samples.

Results

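The genes described here are 10 heat shock proteins and chaperones: the HSP70 proteins HSPA1A, HSPA1B and HSPA8, the HSP90 proteins HSP90AA1 and HSP90AB1, the HSP110 protein HSPH1, the J-domain protein DNAJB1, the small heat shock protein HSPB1 and the mitochondrial pair HSPD1 and HSPE1. They were taken by gene symbol, and all 10 were found among the 23426 rows of every sample. All 10 passed the limit on low values (a mean above 0.1 FPKM in at least 1 group), HSP90AB1 only through 1 sample. The study treated 2 breast cancer cell lines with the kinase inhibitor PKC412 (midostaurin, a staurosporine derivative that inhibits many kinases) and sequenced their RNA. Both are established lines, MDA-MB-468 of the basal-like (triple-negative) and ZR75-1 of the luminal subtype, so that 1 line stood for each subtype and subtype and line cannot be told apart. Cells of each line had received DMSO, the solvent (n = 2 samples per line), or PKC412 at 1 μM per the labels (n = 3 samples per line) and were taken after 6 h, which gives 4 groups and 10 samples. No genetic alteration was introduced in either line. Values are FPKM, fragments scaled by transcript length and by library size. Levels can thus be set beside each other between genes, though FPKM also followed transcript GC content, to a degree that differed between samples.

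HSP70 and HSP90 proteins are ATP-driven chaperones that bind unfolded or nearly folded proteins. J-domain proteins such as DNAJB1 bring clients to HSP70 and trigger its ATP hydrolysis, HSP110 proteins such as HSPH1 exchange the nucleotide, small heat shock proteins hold unfolding proteins without using ATP, and HSPD1 (HSP60) with its lid HSPE1 (HSP10) folds proteins inside mitochondria. HSPA8 and HSP90AB1 are the constitutive cytosolic forms, whereas HSPA1A, HSPA1B, DNAJB1 and HSPH1 are classic targets of heat shock factor 1 (HSF1), which binds repeated GAA or TTC units called heat shock elements, and many kinases are clients of HSP90.

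Promoter sequences are shown first because the promoters of several of these genes hold the HSF1 letters. Of each RefSeq promoter window (GRCh38.p14), the 250 bases before the start site, and no base after it, were searched on both strands for 3 alternating units (GAANNTTCNNGAA or TTCNNGAANNTTC) and for 2 units (GAANNTTC or TTCNNGAA, which every 3-unit match contains). Windows with 3 units made up 0.441% of 35116 windows (155), and 4 of the 16 windows of the 10 genes were among them, 1 each for HSPA8, HSP90AA1, HSP90AB1 and HSPD1. Windows with 2 units made up 11.6% (4067 windows), with 8 of the 16 among them, in 8 of the 10 genes. These letters were not found in the windows of HSPE1 and HSPH1. One stretch each is given below for the genes with a match, 5′ to 3′ on the strand of the gene, with the matched units in capitals.
HSPA1A (chr6:31815422-31815459, plus strand): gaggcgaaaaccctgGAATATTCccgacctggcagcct
HSPA1B (chr6:31827618-31827655, plus strand): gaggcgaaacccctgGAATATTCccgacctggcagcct
HSPA8 (chr11:123062164-123062206, minus strand): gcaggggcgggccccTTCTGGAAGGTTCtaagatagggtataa
HSP90AA1 (chr14:102087090-102087147, minus strand): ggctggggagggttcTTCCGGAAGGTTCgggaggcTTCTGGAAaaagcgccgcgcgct
HSP90AB1 (chr6:44247816-44247858, plus strand): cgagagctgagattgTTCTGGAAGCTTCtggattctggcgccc
DNAJB1 (chr19:14518452-14518489, minus strand): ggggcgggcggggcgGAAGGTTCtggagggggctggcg
HSPB1 (chr7:76302476-76302513, plus strand): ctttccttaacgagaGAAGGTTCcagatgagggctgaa
HSPD1 (chr2:197500053-197500090, minus strand): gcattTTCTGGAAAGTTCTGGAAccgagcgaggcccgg
The capitals began 106 bases before the start site in HSPA1A, 105 in HSPA1B, 55 in HSPA8, 88 in HSP90AA1, 112 in HSP90AB1, 77 in DNAJB1, 182 in HSPB1 and 245 in HSPD1. The HSPA1A and HSPA1B promoters were alike in 235 of 249 aligned bases (94.4%). HSPD1 and HSPE1 lie head to head on chromosome 2, with start sites 105 bases apart for 1 HSPD1 window and 539 for the other. The HSPD1 match lies between the HSPE1 start site and the farther HSPD1 start site, beyond the 250 bases searched for HSPE1. A match is a description of letters and says nothing of binding in these cells.

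The 10 samples had FPKM sums from 599228 to 835069, of which the 10 genes made up 0.304% to 0.63%. The number of reads was not given, so precision rests on the spread between samples alone. The methods describe replicate treatments, and it is not stated whether they were made on separately grown cultures, so p-values measure only the spread between these samples. All 6 luminal markers were higher in every ZR75-1 sample than in every MDA-MB-468 sample, and 5 of 6 basal markers the reverse, CDH3 being the exception. The epithelial markers EPCAM, CDH1, KRT8 and KRT18 were at 7.53 FPKM or more in every sample. Of the markers of other cells, PTPRC and COL3A1 stayed below 0.1 FPKM, PECAM1 reached 0.89 and COL1A1 11.1 FPKM. The samples differed in how FPKM followed the GC content of the transcript, with slopes from -0.36 to 0.37 on the log2 scale per 10 percentage points. The steepest positive slopes were those of MDA-MB-468 DMSO replicate 1 (0.37), ZR75-1 DMSO replicate 1 (0.31) and ZR75-1 PKC412 replicate 2 (0.34). The last of these stood apart from the other PKC412 samples of its line: 14.4% of the 8401 genes above 1 FPKM in every ZR75-1 sample were more than 2-fold below the mean of the other 2 samples, against 0.274% and 0.964% for those. Among 69 chaperone genes (the 10 and the lists named further on, where measured above 1 FPKM) it was 18 (26.1%). Results whose value moved most with this sample are given with and without it.

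HSP90AB1, the constitutive cytosolic HSP90, was listed near 0, although dividing cells express it abundantly. Its FPKM was between 3.72e-21 and 0.00454 in 9 samples and 5.30 in MDA-MB-468 PKC412 replicate 1. The other 15 chaperones checked beside it, which dividing cells express without stress, among them HSPA8, HSP90AA1, HSPA5, HSP90B1 and the 8 subunits of the TRiC chaperonin, were never below 27.2 FPKM (CCT8) in any sample. In 6 samples HSP90AB1 was above 0 but under 1e-06 FPKM, a range that held only 163 to 213 rows of a sample (0.696% to 0.909%). The set limit for an implausibly low row, a mean below 1 FPKM in all 4 groups, was missed only through the single sample at 5.30. On GENCODE release 29 (GRCh38) the gene spans chr6:44246166-44253888 on the plus strand. Of the 50-base words of its longest coding transcript, 18.8% recur in other genes, mostly in the pseudogene HSP90AB3P, and none of those other genes is a row of the files. The microRNA row MIR4647, whose hairpin starts 318 bases beyond the end of HSP90AB1 on the other strand, varied from 0.000567 to 1037 FPKM between samples. SLC35B2, the gene around it, ran from 28.8 to 98.2 FPKM. The HSP90AB1 row cannot be read as the level of this mRNA, and tallies and medians over the 10 genes include it unless 9 genes are named.

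**Figure D1:**
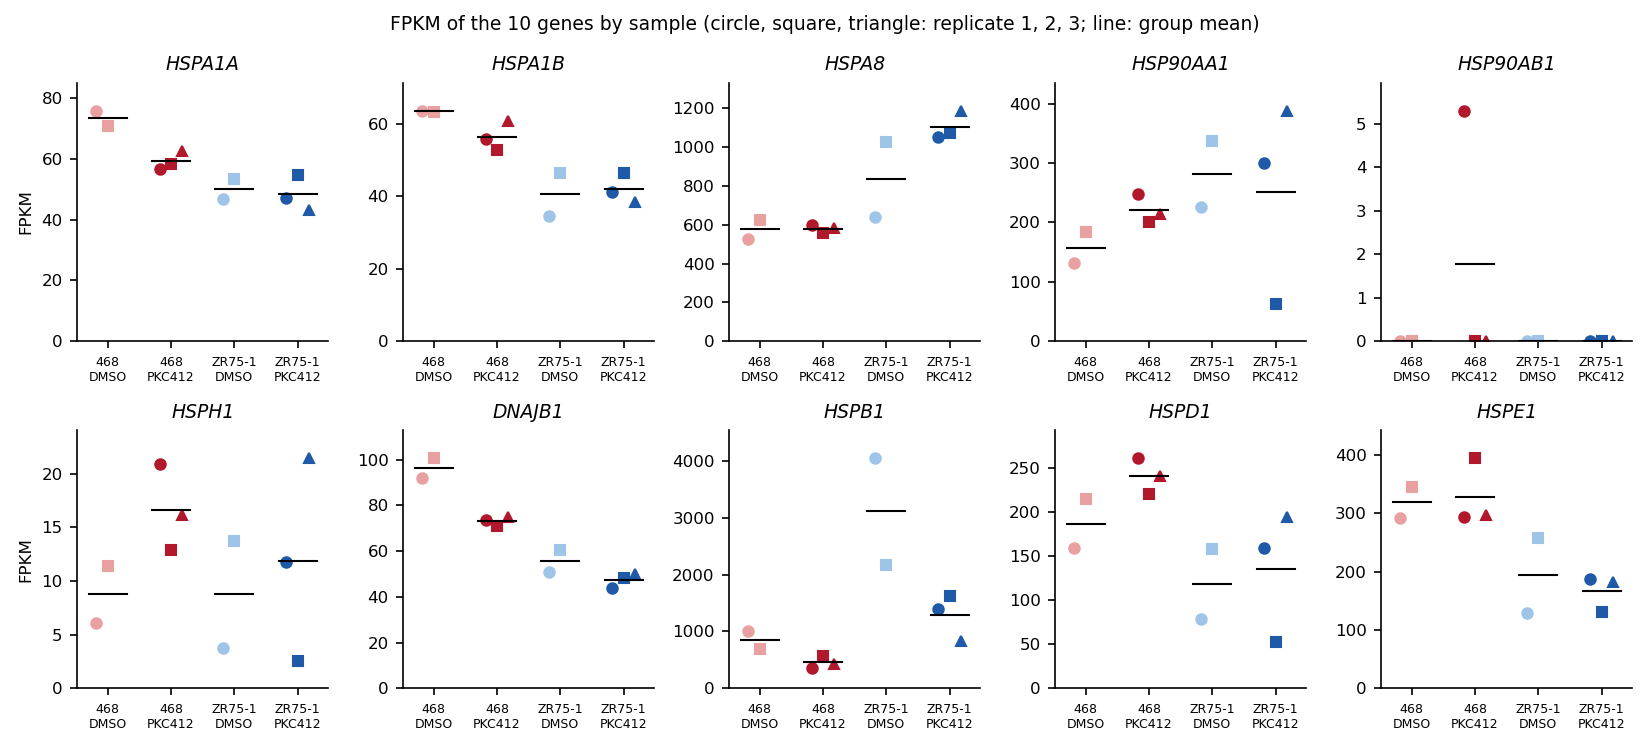
FPKM (linear axes starting at 0, scaled per gene) of the 10 genes in the 10 samples; each point is a sample, its shape the replicate number, and each line a group mean. HSPB1 reaches 4049 in ZR75-1 DMSO replicate 1, HSP90AA1 drops to 62.4 in ZR75-1 PKC412 replicate 2, and HSP90AB1 is above 0.01 in 1 sample.

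HSPB1 and HSPA8 were the most abundant of these mRNAs. HSPB1 ranked between position 33 and 267 among all genes of a sample, and HSPA8 between 85 and 254. HSPE1 ranked from 294 to 775, HSP90AA1 from 273 to 1372 and HSPD1 from 371 to 1571. DNAJB1 (1070 to 1794), HSPA1A (1347 to 1818) and HSPA1B (1516 to 2032) came after these, and HSPH1 was lowest (3190 to 7242) apart from HSP90AB1. Within the HSP70 proteins, the constitutive HSPA8 was 6.92 to 10.5 times as high as the inducible HSPA1A in MDA-MB-468 samples and 13.7 to 27.5 times in ZR75-1 samples. These ratios leave out HSPA1B, which encodes the same protein (HSPA1A was 1.02 to 1.35 times HSPA1B). They thus overstate HSPA8 against the inducible HSP70 mRNA of both genes. HSPA8 has a GC content of 47.0% and HSPA1A of 59.7%, and the ends of both ranges came from samples with steep GC slopes. In MDA-MB-468 these were DMSO replicate 1 (0.37) and PKC412 replicate 1 (-0.29). In ZR75-1 they were DMSO replicate 1 (0.31) and PKC412 replicate 3 (-0.36). The width of each range thus cannot be told apart from the GC slope.

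The lines differed in these genes before any drug. With DMSO, the inducible genes HSPA1A, HSPA1B and DNAJB1 were higher in MDA-MB-468, and the small heat shock protein HSPB1 was higher in ZR75-1. These 4 of the 10 genes had an adjusted p under 0.05 in limma (3 higher and 1 lower in MDA-MB-468), against 42.4% of all 16071 genes tested, a share near that of the members. With PKC412, 6 of the 10 passed (HSPA1A, HSPA1B, DNAJB1 and HSPE1 higher in MDA-MB-468, HSPA8 and HSPB1 lower), against 58.6% of all genes. The median difference (MDA-MB-468 minus ZR75-1) was 0.35 on the log2 scale over the 10 genes with DMSO and 0.11 over all genes, and 0.52 and 0.19 with PKC412. Over the 9 genes without HSP90AB1 the medians were 0.55 and 0.42. Whether fewer cells of a line expressed a gene or each cell held less of its mRNA cannot be told apart in such bulk samples.

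The line difference of HSPB1, which in cells keeps unfolding proteins soluble, was the largest of the 10. HSPB1 stood at 1004 and 699 FPKM in the MDA-MB-468 DMSO samples and at 4049 and 2166 in the ZR75-1 DMSO samples. With PKC412 it stood at 363, 565 and 435 in MDA-MB-468 and at 1402, 1619.7 and 839.7 in ZR75-1. Every ZR75-1 sample lay above every MDA-MB-468 sample of the same treatment. The difference was -1.82 ± 0.41 (log2, SE; adjusted p = 0.00745 in limma) with DMSO and -1.47 ± 0.33 (adjusted p = 0.00571) with PKC412. The DMSO call was lost without ZR75-1 DMSO replicate 1 (-1.37, adjusted p = 0.0502) or MDA-MB-468 DMSO replicate 2 (-1.56, adjusted p = 0.0582). HSPB1 has a GC content of 64.5%, the highest of the 10, and ZR75-1 DMSO replicate 1, its highest sample, has one of the steepest GC slopes. After adjustment for GC content and length the line differences were -1.95 with DMSO and -1.38 with PKC412, both still past the threshold.

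DNAJB1, the main HSF1-driven partner of HSP70 in the cytosol, showed the firmest line difference. Its FPKM was 91.8 and 101 in MDA-MB-468 DMSO samples and 50.7 and 60.6 in ZR75-1 DMSO samples. With PKC412 it was 73.6, 70.8 and 75.0 against 43.8, 48.0 and 49.8. All 5 MDA-MB-468 samples were thus above all 5 ZR75-1 samples. The difference was 0.78 ± 0.12 (log2, SE; adjusted p = 0.00104) with DMSO and 0.62 ± 0.10 (adjusted p = 0.000841) with PKC412, and both kept an adjusted p under 0.05 in each of 19 alternative settings.

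HSPA1A and HSPA1B encode the same inducible HSP70 from neighbouring genes, 12271 bases apart on chromosome 6. Of their 50-base words, 72.6% (HSPA1A) and 73.5% (HSPA1B) recur in other genes, nearly all in each other, so the split of reads between the 2 rows is uncertain. HSPA1A stood at 75.9 and 70.9 FPKM in MDA-MB-468 with DMSO and at 56.7, 58.4 and 62.7 with PKC412, and in ZR75-1 at 46.6 and 53.4 with DMSO and at 47.2, 54.7 and 43.3 with PKC412. HSPA1B stood at 63.6 and 63.1 in MDA-MB-468 with DMSO and at 55.8, 52.6 and 60.6 with PKC412, and in ZR75-1 at 34.6 and 46.4 with DMSO and at 41.1, 46.3 and 38.2 with PKC412. All MDA-MB-468 samples were above all ZR75-1 samples for both rows, and the ratio of HSPA1A to HSPA1B lay between 1.02 and 1.35 in the 10 samples. With DMSO the line difference was 0.55 ± 0.13 for HSPA1A (log2, SE; limma, adjusted p = 0.0112) and 0.65 ± 0.16 for HSPA1B (adjusted p = 0.0108). With PKC412 it was 0.29 ± 0.11 (adjusted p = 0.0479) and 0.42 ± 0.13 (adjusted p = 0.0219). With the 2 rows summed, the line difference passed with either treatment. The calls of the separate rows depend on the scaling of the samples. After median-ratio rescaling the differences were 0.37 (adjusted p = 0.177) and 0.47 (adjusted p = 0.0682) with DMSO, and 0.10 (adjusted p = 0.612) and 0.23 (adjusted p = 0.211) with PKC412. Leaving out MDA-MB-468 DMSO replicate 1 or ZR75-1 DMSO replicate 1 also ended both DMSO calls, and leaving out MDA-MB-468 DMSO replicate 2 ended that of HSPA1B. The HSPA1A call with PKC412 was lost when any MDA-MB-468 sample, ZR75-1 PKC412 replicate 1 or ZR75-1 PKC412 replicate 3 was left out (adjusted p from 0.0681 to 0.148), and that of HSPA1B without replicate 1 or 3 of the PKC412 samples of either line (adjusted p from 0.0553 to 0.0799).

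HSPA8, which folds new proteins and uncoats clathrin vesicles, went the other way. Its FPKM was 525 and 626 in MDA-MB-468 with DMSO and 599, 556 and 585 with PKC412. In ZR75-1 it was 639.8 and 1028 with DMSO and 1054, 1072 and 1189 with PKC412. The ZR75-1 DMSO replicate 1 value lay near the MDA-MB-468 values, and the other 4 ZR75-1 samples lay well above them. The line difference was -0.50 ± 0.22 (log2, SE; limma, adjusted p = 0.101) with DMSO and -0.93 ± 0.18 (adjusted p = 0.00236) with PKC412. The DMSO difference passed in only 2 of 19 alternative settings. Without ZR75-1 DMSO replicate 1 it was -0.84 (adjusted p = 0.00802), and after median-ratio rescaling it was -0.68 (adjusted p = 0.0191). Over the 19 settings it ran from -0.84 to -0.16, with limma adjusted p up to 0.514, and after the adjustment for GC content and length it was -0.42.

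The mitochondrial pair HSPD1 and HSPE1 was higher on average in MDA-MB-468, but the ZR75-1 samples spread widely. HSPE1 stood at 292 and 344 FPKM in MDA-MB-468 with DMSO and at 293, 395 and 296 with PKC412, and in ZR75-1 at 129 and 257 with DMSO and at 188, 130.1 and 183 with PKC412. HSPD1 stood at 159 and 215 in MDA-MB-468 with DMSO and at 262, 221 and 241 with PKC412, and in ZR75-1 at 78.8 and 158 with DMSO and at 159, 52.0 and 195 with PKC412. Within each treatment every MDA-MB-468 sample was above every ZR75-1 sample for both genes. For HSPE1 the line difference was 0.79 ± 0.33 (log2, SE; limma, adjusted p = 0.0865) with DMSO and 0.98 ± 0.27 (adjusted p = 0.0139) with PKC412. For HSPD1 it was 0.72 ± 0.58 (adjusted p = 0.367) and 1.03 ± 0.48 (adjusted p = 0.0949). Single samples decided some of these calls: HSPE1 with DMSO passed without ZR75-1 DMSO replicate 2 (1.29, adjusted p = 0.0105), and HSPD1 with PKC412 passed without ZR75-1 PKC412 replicate 3 (1.39, adjusted p = 0.0373) but was 0.45 (adjusted p = 0.223) without ZR75-1 PKC412 replicate 2, where HSPE1 still passed (0.81, adjusted p = 0.0458). Both genes passed with either treatment after the adjustment for GC content described further on, and with the replicate numbers as a block as well they passed with PKC412 and not with DMSO. The ratio of HSPE1 to HSPD1 ran from 0.939 in ZR75-1 PKC412 replicate 3 to 2.50 in ZR75-1 PKC412 replicate 2. These samples have GC slopes of -0.36 and 0.34, and the transcripts have a GC content of 50.2% (HSPE1) and 44.2% (HSPD1). After the adjustment for GC content and length, HSPE1 and HSPD1 stood at 201 and 141 FPKM in replicate 3. In replicate 2 they stood at 134 and 68.9. Whether the proportion of lid and barrel differed between samples was not tested. Words shared with other genes, 27.2% for HSPE1 and 24.8% for HSPD1, include the readthrough row HSPE1-MOB4, which was listed at 0.156 FPKM in ZR75-1 DMSO replicate 2 and below 1e-06 in the other 9 samples.

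HSP90AA1, the inducible cytosolic HSP90, and HSPH1 showed no line difference beyond the spread. HSP90AA1 stood at 131 and 183 FPKM in MDA-MB-468 with DMSO and at 248, 199.9 and 214 with PKC412, and in ZR75-1 at 225 and 337 with DMSO and at 301, 62.4 and 388 with PKC412. HSPH1 stood at 6.05 and 11.4 in MDA-MB-468 with DMSO and at 20.9, 12.9 and 16.2 with PKC412, and in ZR75-1 at 3.80 and 13.7 with DMSO and at 11.7, 2.50 and 21.5 with PKC412. The ZR75-1 PKC412 values of both genes span from the lowest to the highest of all 10 samples. With DMSO the HSP90AA1 difference was -0.83 with a 95% interval from -2.53 to 0.88, and it had an adjusted p of 0.0319 when ZR75-1 PKC412 replicate 2 was left out of the common fit (0.42 with it). With PKC412 it was 0.18 with an interval from -1.21 to 1.57, and without ZR75-1 PKC412 replicate 2 it was -0.63 (adjusted p = 0.0512). Its sign also turned under median-ratio rescaling. For HSPH1 the differences were 0.16 (interval -1.78 to 2.10) and 0.79 (interval -0.79 to 2.38), the latter falling to 0.04 (adjusted p = 0.961) without ZR75-1 PKC412 replicate 2.

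**Figure D2:**
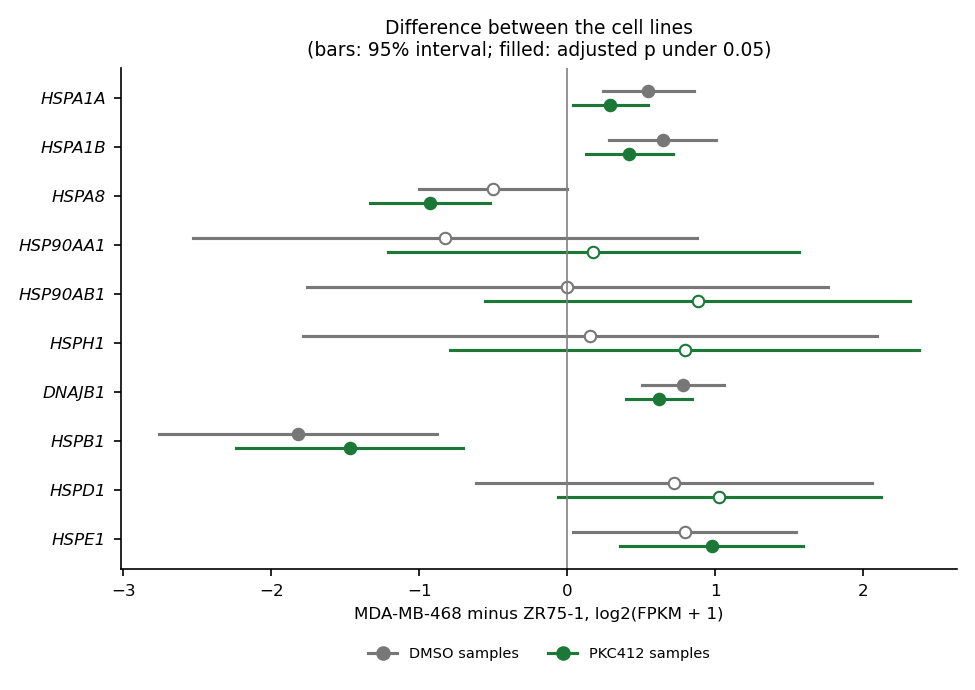
Difference in log2(FPKM + 1) between MDA-MB-468 and ZR75-1 (x axis; positive is higher in MDA-MB-468) for each gene, in DMSO samples (grey) and PKC412 samples (green). Points are limma estimates, bars 95% intervals, and filled points have an adjusted p under 0.05: 4 genes with DMSO and 6 with PKC412, with HSPB1 farthest to the left.

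The second question was whether 6 h of PKC412 changed these genes. In neither line did any of the 10 pass the test, so no induction of the heat shock genes was detected at this spread. In MDA-MB-468, 0 of the 10 had an adjusted p under 0.05 in limma, against 1.26% of all genes, and 3 had an unadjusted p under 0.05 (HSPA1A, DNAJB1 and HSPB1, all with lower means under PKC412), against 16.4% of all genes. In ZR75-1, 0 of the 10 passed, against 0.946% of all genes, and 1 had an unadjusted p under 0.05 (HSPB1, lower mean under PKC412), against 11.2% of all genes. The lowest adjusted p was 0.174 in MDA-MB-468 (DNAJB1) and 0.264 in ZR75-1 (HSPB1). The median difference (PKC412 minus DMSO) was 0.02 over the 10 genes and 0.11 over all genes in MDA-MB-468, and -0.02 and 0.07 in ZR75-1. Setting every sample to the same FPKM sum raised the all-gene medians to 0.24 and 0.19.

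Without regard to a test, 7 of the 10 genes had PKC412 and DMSO samples that did not overlap in MDA-MB-468, against 55.9% of all genes: HSP90AA1, HSPH1 and HSPD1 were higher in every PKC412 sample and HSPA1A, HSPA1B, DNAJB1 and HSPB1 lower. In ZR75-1 it was 3 of the 10, against 21.7% of all genes: HSPA8 was higher, and DNAJB1 and HSPB1 were lower. An exact permutation test of 2 against 3 samples cannot go below 0.1.

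DNAJB1 and HSPB1 were the genes whose PKC412 samples lay below the DMSO samples in both lines. The DNAJB1 difference was -0.39 (95% interval -0.64 to -0.14; adjusted p = 0.174) in MDA-MB-468 and -0.23 (-0.48 to 0.02; adjusted p = 0.486) in ZR75-1. The HSPB1 difference was -0.91 (-1.77 to -0.05; adjusted p = 0.293) in MDA-MB-468 and -1.26 (-2.11 to -0.40; adjusted p = 0.264) in ZR75-1. After an adjustment for GC content and transcript length, chosen after seeing the data, 3 of these passed: DNAJB1 in MDA-MB-468 (-0.48, adjusted p = 0.0102) and in ZR75-1 (-0.38, adjusted p = 0.0307), and HSPB1 in ZR75-1 (-0.94, adjusted p = 0.0081). The fourth, HSPB1 in MDA-MB-468, shrank to -0.37 (adjusted p = 0.161). With the replicate numbers as a block as well, none (0) of the 10 passed in either line.

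For the other genes the intervals show which changes remain possible. In MDA-MB-468 the HSPA1A difference was -0.30 (95% interval -0.59 to -0.02; adjusted p = 0.287) and that of HSPA1B -0.17 (-0.50 to 0.16; adjusted p = 0.493). In ZR75-1 these were -0.05 (-0.33 to 0.23) and 0.06 (-0.27 to 0.39). HSPA8 differed by 0.02 (-0.44 to 0.47) in MDA-MB-468 and by 0.44 (-0.01 to 0.90; adjusted p = 0.457) in ZR75-1. The signs of HSPA1B and HSPA8 in MDA-MB-468 and of HSPA1A and HSPA1B in ZR75-1 turned under at least 1 other scaling or the GC adjustment.

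HSP90AA1, HSPH1 and HSPD1 had wide intervals. In MDA-MB-468 the differences were 0.50 (95% interval -1.05 to 2.06), 0.89 (-0.88 to 2.66) and 0.38 (-0.85 to 1.60). In ZR75-1 they were -0.50 (-2.06 to 1.05), 0.25 (-1.52 to 2.02) and 0.07 (-1.15 to 1.30). Without ZR75-1 PKC412 replicate 2 the ZR75-1 values became 0.31, 1.01 and 0.65, with adjusted p of 0.464, 0.351 and 0.340 in limma, so the sign of the HSP90AA1 value rests on that sample. HSPE1 differed by 0.03 (-0.66 to 0.72) in MDA-MB-468 and by -0.15 (-0.84 to 0.54) in ZR75-1, and its sign and that of HSPD1 in both lines, and of HSPH1 in ZR75-1, turned under another scaling or the GC adjustment. The HSP90AB1 value of 0.89 (-0.72 to 2.49) in MDA-MB-468 comes from the single sample at 5.30 FPKM.

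**Figure D3:**
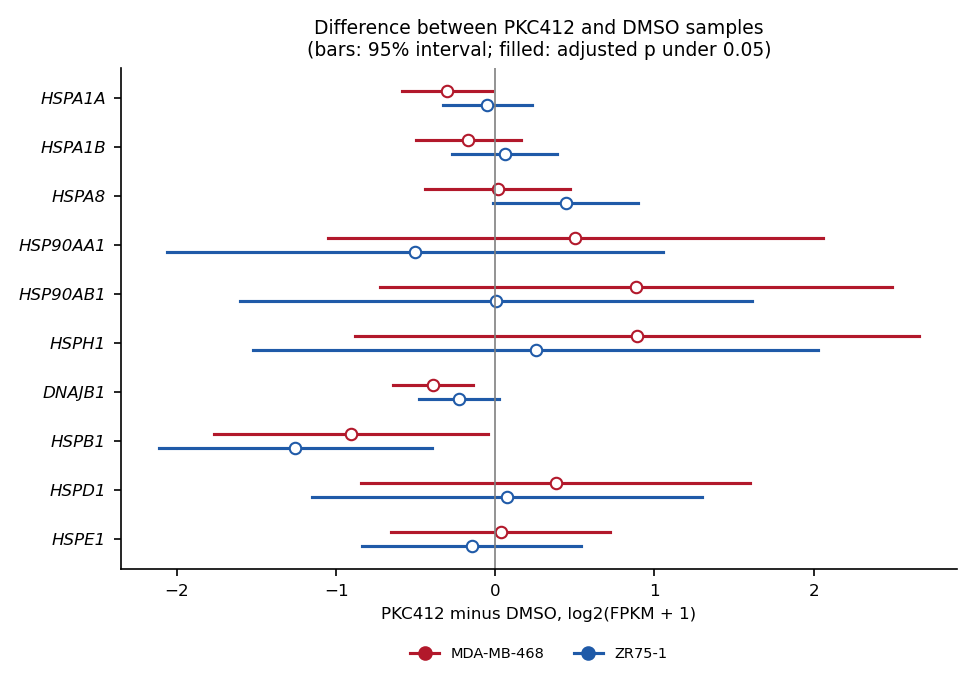
Difference in log2(FPKM + 1) between PKC412 and DMSO samples (x axis; positive is higher with PKC412) for each gene in MDA-MB-468 (red) and ZR75-1 (blue). Points are limma estimates and bars 95% intervals; all points are open because 0 of the 10 genes passed in either line, and the intervals of HSP90AA1, HSP90AB1, HSPH1 and HSPD1 are the widest.

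The PKC412 differences of the lines were also set against each other in the same fit. For 0 of the 10 genes did they differ, against 0.268% of all genes, and the lowest adjusted p was 0.926 (HSPA8, -0.43, 95% interval -1.07 to 0.22, as MDA-MB-468 minus ZR75-1). For none (0) of them was the unadjusted p of this difference under 0.05. For DNAJB1 the interval ran from -0.52 to 0.20, and for HSPB1 from -0.87 to 1.56, so the HSPB1 interval covers a larger response in either line.

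The spread between samples of a group moved with the GC content of the transcripts for part of the 10 genes. HSPH1 (40.0% GC), HSPD1 (44.2%) and HSP90AA1 (45.2%) lay at the low end of the 10, and DNAJB1 (53.0%), HSPA1B (58.7%), HSPA1A (59.7%) and HSPB1 (64.5%) at the high end. In MDA-MB-468 DMSO replicate 1, which has the steepest slope, HSPH1 lay 0.94 below and HSPB1 0.80 above the line mean on the log2 scale. In ZR75-1 DMSO replicate 1, HSPH1 lay 0.96 below and HSPB1 1.20 above. ZR75-1 PKC412 replicate 3 has the most negative slope and showed the reverse, with HSPH1 1.27 above and HSPB1 1.06 below. The other genes at the high end followed less. HSPA1A, HSPA1B and DNAJB1 lay 0.23, 0.11 and 0.17 above in MDA-MB-468 DMSO replicate 1. In ZR75-1 DMSO replicate 1 they lay at -0.07, -0.24 and 0.01. In ZR75-1 PKC412 replicate 2, with a slope of 0.34, HSPH1 lay 1.41 below but HSPB1 also 0.12 below. In MDA-MB-468 both DMSO samples have higher slopes than all 3 PKC412 samples, so GC slope and treatment cannot be told apart there.

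After the adjustment for GC content and length, the MDA-MB-468 differences of HSPH1, HSPD1 and HSP90AA1 between samples shrank, with deviations of at most 0.30 from the line mean. In ZR75-1 PKC412 replicate 2, HSP90AA1 still lay 1.44 below, HSPH1 0.84 below and HSPD1 0.73 below, while HSPA8 lay 0.40 above. Low values in that sample thus remained for part of the chaperones after the adjustment, and their cause was not tested. HSPB1 still lay lower in the PKC412 than in the DMSO samples of both lines, at -0.06 to -0.20 in MDA-MB-468 and -0.31 to -0.44 in ZR75-1, against 0.15 and 0.29 and against 0.38 and 0.75 in the DMSO samples.

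**Figure D4:**
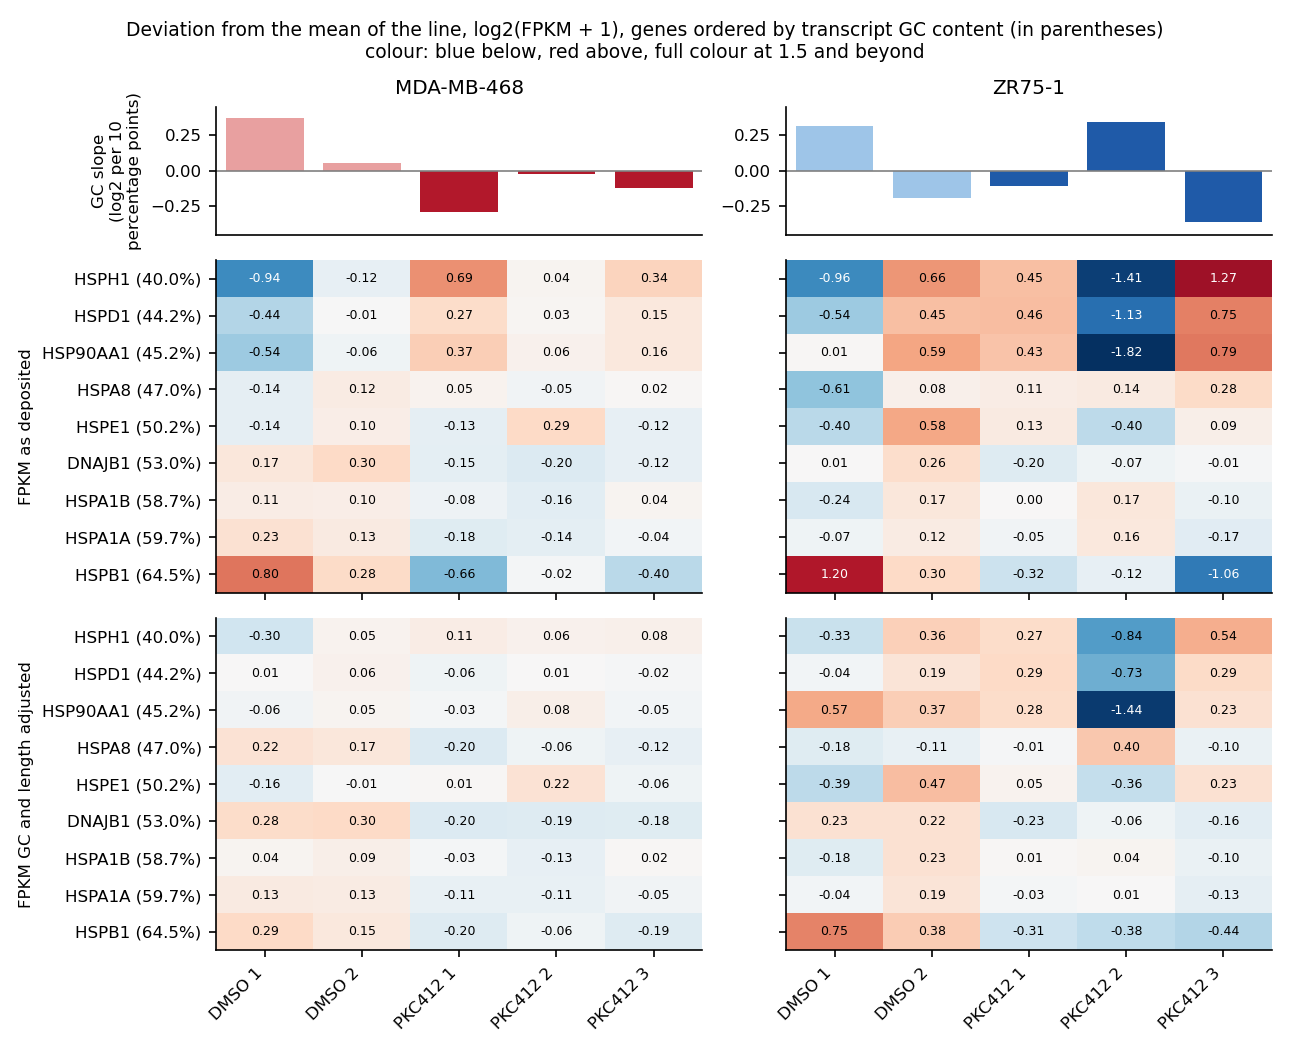
Top, slope of FPKM against transcript GC content per sample (log2 per 10 percentage points). Below, the deviation of each gene from the mean of its line in log2(FPKM + 1), as deposited and after adjustment, with genes ordered from 40.0% (HSPH1) to 64.5% GC (HSPB1); HSP90AB1 is left out. In the samples with steep positive slopes HSPH1 and HSPD1 at the top are blue and HSPB1 is red or pale, and the HSP90AA1 value of ZR75-1 PKC412 replicate 2 goes from -1.82 to -1.44.

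The wider chaperone network was read from lists of 88 other genes, of which 85 passed the limit on low values. With PKC412, 1 of these passed the test in each line, against 1.26% (MDA-MB-468) and 0.946% (ZR75-1) of all genes. BAG1, a nucleotide exchange factor that releases clients from HSP70, rose in ZR75-1, and HSPB3, a small heat shock protein barely expressed here, fell in MDA-MB-468. BAG1 stood at 33.8 and 30.8 FPKM in ZR75-1 with DMSO and at 78.8, 73.1 and 71.6 with PKC412. In MDA-MB-468 it stood at 67.3 and 62.1 with DMSO and at 58.2, 67.2 and 61.8 with PKC412. The 3 treated ZR75-1 samples thus lay above all MDA-MB-468 samples, and the ZR75-1 DMSO samples below them. The BAG1 difference was 1.18 ± 0.10 in ZR75-1 (log2, SE; limma, adjusted p = 0.00219) and -0.05 ± 0.10 in MDA-MB-468 (adjusted p = 0.781). The ZR75-1 call was lost after the GC and length adjustment (0.90, adjusted p = 0.171). HSPB3 went from a mean of 0.284 to 0.0984 FPKM in MDA-MB-468 (-0.23 ± 0.03, adjusted p = 0.0244) and was listed at 0 in ZR75-1, and its call held in 8 of 18 alternative settings. Of the 13 classic inducible targets on the lists (HSPA6, DNAJA1, DNAJB4, BAG3, HSPA4L, HSPB8, CRYAB, CHORDC1, AHSA1, STIP1, FKBP4, SERPINH1 and UBB), 0 passed in either line, and their median difference was 0.000923 for MDA-MB-468 cells and 0.15 for ZR75-1 cells.

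Between the lines, 30 of the 85 genes were higher and 10 lower in MDA-MB-468 with DMSO, and 37 and 15 with PKC412, against 42.4% and 58.6% of all genes called in either direction. With DMSO the median difference was 0.29 over the 85 and 0.11 over all genes, of which 4266 were higher and 2556 lower. Of the 8 genes tested on the list of small heat shock proteins, 5 were higher (HSPB3, HSPB6, HSPB7, HSPB11 and CRYAB) in MDA-MB-468 with DMSO. On the same list 1 was lower (HSPB8). Among the 5, HSPB3, HSPB6 and HSPB7 were barely expressed. Their DMSO means in MDA-MB-468 and ZR75-1 were 0.284 and 0, 0.295 and 0.109, and 0.167 and 0.0217 FPKM. HSPB11, which is on the list by its symbol only, had DMSO means of 88.6 and 27.9 FPKM. CRYAB (alpha-B-crystallin) had mean FPKM values with DMSO of 286 in MDA-MB-468 against 0.245 in ZR75-1 (7.85 ± 0.14, log2, SE; limma, adjusted p = 2.09e-08). HSPB8, a partner of BAG3 in selective autophagy, had 0.0489 and 52.3 FPKM (-5.64 ± 0.21, adjusted p = 5.33e-07), and BAG3 itself 13.8 and 38.9 (-1.40 ± 0.25, adjusted p = 0.00249). CRYAB, HSPB8 and HSPB1 thus did not share 1 direction: HSPB8, HSPB1 and BAG3 were higher in ZR75-1 and CRYAB in MDA-MB-468.

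Of the 15 other HSP90 proteins and co-chaperones, 5 were higher and 3 lower in MDA-MB-468 with DMSO, against 42.4% of all genes in either direction. CDC37, which delivers kinases to HSP90, had means of 609 and 118 FPKM in MDA-MB-468 and ZR75-1 (2.35 ± 0.13, log2, SE; limma, adjusted p = 3.23e-06). FKBP4, a co-chaperone of steroid receptors, had 29.6 and 297 (-3.29 ± 0.09, adjusted p = 1.18e-07), and FKBP5, its counterpart in the same complexes, 7.49 and 1.09 (2.03 ± 0.35, adjusted p = 0.00198). Of the 8 TRiC subunits, which fold actin and tubulin, 5 were higher in MDA-MB-468 with DMSO and none (0) lower, led by CCT6A with 347 and 50.2 FPKM (2.80 ± 0.45, adjusted p = 0.00128). With PKC412, 6 were higher and 1 (CCT2) lower, against 58.6% of all genes in either direction.

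Of the 11 other HSP70 proteins tested, 4 were higher and 1 lower in MDA-MB-468 with DMSO, a share near the 42.4% of all genes. HSPA5 (BiP, the HSP70 of the endoplasmic reticulum) had means of 427 and 101 FPKM (2.08 ± 0.25, log2, SE; limma, adjusted p = 0.000276), and HSPA6, a strictly inducible HSP70, 0.0498 and 3.65 (-2.15 ± 0.16, adjusted p = 2.09e-05). HSPA7, a close copy of HSPA6 on the list of copies, was at 0 to 0.0156 FPKM in MDA-MB-468 and at 0.49 to 0.773 in ZR75-1, and HSPA1L, a neighbour of HSPA1A, at 0.292 to 0.823 over all samples. Of the 17 J-domain proteins 1 was higher and 2 were lower, among them DNAJA4 with 0.132 and 7.42 FPKM (-2.84 ± 0.35, adjusted p = 0.000328). Of the 9 nucleotide exchange factors 2 were higher and 1 lower, and of the 6 prefoldin subunits 3 were higher. Of the 5 mitochondrial genes listed beside HSP60, 2 were higher (CLPB and HTRA2). HSF1, the factor behind the heat shock response, had means of 31.2 FPKM in MDA-MB-468 and 50.3 in ZR75-1 (-0.67 ± 0.14, adjusted p = 0.00543), while HSF2, HSF4 and HSBP1 were higher in MDA-MB-468. HSF1 was thus lower in the line in which HSPA1A, HSPA1B and DNAJB1 were higher. Other inducible genes went the other way. Of the 13 classic inducible targets on the lists, 2 were higher and 5 lower in MDA-MB-468 with DMSO (median difference -0.09), against 42.4% of all genes called in either direction. The mRNA level of HSF1 is not its activity, which was not measured.

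**Figure D5:**
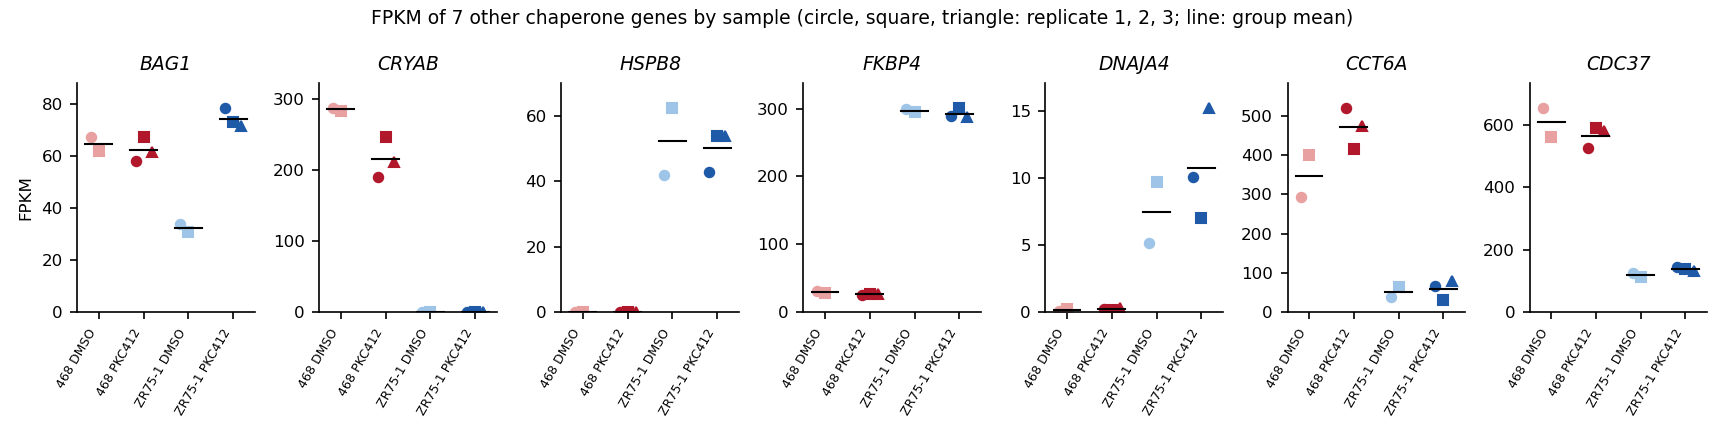
FPKM (linear axes starting at 0, scaled per gene) of BAG1 and of the 6 listed chaperone genes with the largest line difference with DMSO; each point is a sample, its shape the replicate number, and each line a group mean. BAG1 goes from 30.8 and 33.8 to between 71.6 and 78.8 in ZR75-1 with PKC412, and CRYAB, HSPB8, FKBP4, DNAJA4, CCT6A and CDC37 do not overlap between the lines.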

How the data were processed

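RNA of 10 samples was sequenced, and the authors deposited FPKM values per gene symbol, 1 file per sample, from an in-house pipeline. The submitters' processing notes name CASAVA 1.82, TopHat2 and hg19, with no annotation. The methods describe triplicates, while 2 DMSO samples per line were analysed here, and some figure legends give a lower dose than the labels. Read counts were not given, so depth is unknown. Differences were tested with limma 3.58.1 (R 4.3.3) on log2(FPKM + 1), which understates the change of low genes, as 4 group means with trended eBayes, 2-sided, and p-values were adjusted by Benjamini-Hochberg (threshold 0.05) over the 16071 genes that exceeded a mean of 0.1 FPKM in any group. The fit was tested on simulated data. The members and lists were chosen with earlier results of these data known; 1 listed gene is not reported here. Named genes were the 10 members, up to 3 rises and 3 falls past the threshold per list and comparison, and copies above 0.1 FPKM. GC content, length, positions and shared 50-base words came from GENCODE release 29 (GRCh38) for 20638 genes (88.1%), the longest coding transcript, and promoters from RefSeq GRCh38.p14; no coordinates were moved between builds. Python 3.11.15, pandas 2.3.3 and matplotlib 3.10.9 did the rest. Alternatives were other pseudocounts, limits, scalings, a replicate block, no trend, HSPA1A and HSPA1B summed, and each sample left out. For the adjustment, the deviation of each sample from the line mean was modelled by degree 3 polynomials in GC content and log2 transcript length and divided out.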

Additional observations from a re-analysis of the deposited data

Results flagged for a closer look

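BAG1, a nucleotide exchange factor of HSP70, was flagged because its PKC412 difference was not the same in the lines by a test of that difference: -1.24 on the log2 scale, as MDA-MB-468 minus ZR75-1 (95% interval -1.57 to -0.90; limma, adjusted p = 0.0181). It was higher with PKC412 in 3 of 3 ZR75-1 samples. The call was lost in 9 of 19 alternative settings, among them median-ratio rescaling (-1.25, adjusted p = 0.131), the GC and length adjustment (-1.34, adjusted p = 0.241) and 5 settings that left out 1 sample, with adjusted p from 0.0122 to 0.894 over the 19.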

How the results depend on the processing

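No value of a named gene that passed the test changed sign in any setting, while counts of genes moved. For PKC412 in MDA-MB-468, 202 genes became 116 with a pseudocount of 0.1, 104 with a common FPKM sum (68.3% of them higher, against 55.0%) and 578 after GC and length adjustment (chosen after seeing the data); leaving out 1 sample gave 65 to 324. For ZR75-1, 152 became 455 after that adjustment (61.5% higher, against 78.9%; 91.3% with a common FPKM sum), and 59 to 183 with 1 sample left out. For the difference between the lines' responses, 43 became 27 with a pseudocount of 0.1, 68 with no filter, 28 with a common FPKM sum, 68 without a trend, 209 after adjustment, and 16 to 64 with 1 sample left out. Of the 10 members, 1 (MDA-MB-468) and 2 (ZR75-1) passed for PKC412 after adjustment, and the DMSO line count of 4 became 2 to 5 with 1 sample left out (2 without MDA-MB-468 DMSO replicate 1 or 2 or ZR75-1 DMSO replicate 1). The cause was not tested. With the replicate block, 0 genes passed for PKC412 in either line or for their difference, and 3, 3 and 3 with adjustment as well. Same-numbered samples did not deviate together (correlations -0.39 to -0.02 over 11144 genes). With 2 DMSO samples per line and GC slopes that differ between samples, this cannot decide whether the numbers pair the samples. The block leaves few degrees of freedom. It ended the PKC412 line call of HSPA1A (0.29, adjusted p = 0.0865) and the ZR75-1 call of BAG1 (1.21, adjusted p = 0.831).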
